A study of Saccharomyces cerevisiae with 24 samples.

Results

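The 9 strains described here are deletion mutants of SPT4 (YGR063C), of the dubious open reading frame YGR064W that overlaps SPT4 on the opposite strand, and of other factors that accompany RNA polymerase II along genes: DST1 (YGL043W), ELF1 (YKL160W), PAF1 (YBR279W), RTF1 (YGL244W), LEO1 (YOR123C), CDC73 (YLR418C) and CTR9 (YOL145C). They were followed by their barcodes, through 21 of 14129 barcode probes and as 9 of 5526 strains with a probe. The set was selected on results of this screen, since the high signals of the SPT4 and YGR064W strains with the MDM33 plasmid on galactose were known when it was drawn up, and the other members were chosen for their role in transcription elongation. The members' values from the MDM33 plasmid on galactose are therefore given as a description with no test of the members. Comparisons without those libraries were tested, although they share libraries with the ones behind the choice. Their standard errors also draw on the MDM33 plasmid on galactose, because the spread was pooled over all 4 groups.

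The screen measured how much of a pool each deletion strain made up when Mdm33, a protein of the mitochondrial inner membrane whose excess arrests growth, was overproduced. The pool was the MATα haploid deletion collection YSC1054 in the BY4742 background, in which each strain is a single library clone with 1 gene replaced. It was transformed with pYX223-MDM33, a multicopy plasmid with MDM33 behind the GAL1/10 promoter, or with empty pYX223, and transformants were first selected on glucose for 4 days. They were then spread on medium without amino acids apart from leucine and lysine, with uracil. The 4 groups were the MDM33 plasmid on 2% galactose for 4 days, the MDM33 plasmid on 2% glucose for 2 days, the empty vector on 2% galactose for 4 days and the empty vector on 2% glucose for 2 days. Sugar and time on the plate thus differed together. Each group was measured in 2 independent experiments, and the 8 resulting samples are called libraries below. In experiment 1 galactose samples carried Cy3 and glucose samples Cy5, so dye and sugar cannot be told apart there, while in experiment 2 every sample was hybridized in both dyes.

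RNA polymerase II does not transcribe alone. Spt4 with its partner Spt5 clamps onto the elongating enzyme and keeps it on the template. The cleavage factor TFIIS, the product of DST1, restarts polymerases that have slid backwards, and Elf1 is a small factor that binds the elongating enzyme. The Paf1 complex, made of Paf1, Ctr9, Rtf1, Leo1 and Cdc73, travels with the polymerase and is needed for ubiquitylation of histone H2B and for the histone H3 methylation that follows it. The GAL1/10 promoter is shut off on glucose and strongly transcribed on galactose.

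A value is given in units of spot intensity scaled to a common total per dye channel, averaged over dyes and then over both barcodes of a strain, the uptag and the downtag. It stands for a share of the pool, so a strain with more cells and a pool with fewer cells of other strains cannot be told apart, and the units of 1 barcode cannot be set against those of another. A strain counted as detected where at least 1 tag exceeded the 99th percentile of probes for the tag that had not been labelled in that channel, a limit of 176 to 3339 units. The libraries with the MDM33 plasmid on galactose detected 3065 and 2546 strains, against 3691 to 4245 strains in the other 6 libraries. Their experiments also differed more. The median difference of a strain between experiments was 1.68 on the log2 scale there, against 0.64 to 0.75 in the other groups. Of the 5526 strains, 4148 had a mean ratio to the limit above 1 and were tested, 6 of the 9 members among them.

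The SPT4 strain (chromosome VII, 617516 to 617824 in assembly R64) gave 595679 and 393362 units with the MDM33 plasmid on galactose, 16375 and 1232 units with the MDM33 plasmid on glucose, 56419 and 31882 units for the empty vector on galactose, and 11.1 and 2781 units with the empty vector on glucose, experiment 1 before experiment 2 in each pair. The value of 11.1 units was below the limit, and the strain was detected in the other 7 libraries. For both plasmids both galactose values lay above both glucose values. On galactose both values with the MDM33 plasmid lay above both with the empty vector. On glucose the plasmids overlapped. With 2 values per group such a separation is easily reached, and its share over all strains was not counted. The values with the MDM33 plasmid on galactose also lay behind the choice, so these separations are a description.

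The YGR064W strain was also highest with the MDM33 plasmid on galactose, and next highest on that sugar with the empty vector. It gave 414100 and 178941 units with the MDM33 plasmid on galactose, 50.0 units, below the limit, and 3880 units with the MDM33 plasmid on glucose, 44778 and 14283 units for the empty vector on galactose, and 1826 and 1314 units with the empty vector on glucose. It was detected in 7 libraries, and its galactose values did not overlap its glucose values under either plasmid, a description with the same limits. Over the 8 libraries the log2 values of the SPT4 and YGR064W strains had a Pearson correlation of 0.82. This is a description over libraries that all strains share and that include those behind the choice.

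**Figure D1:**
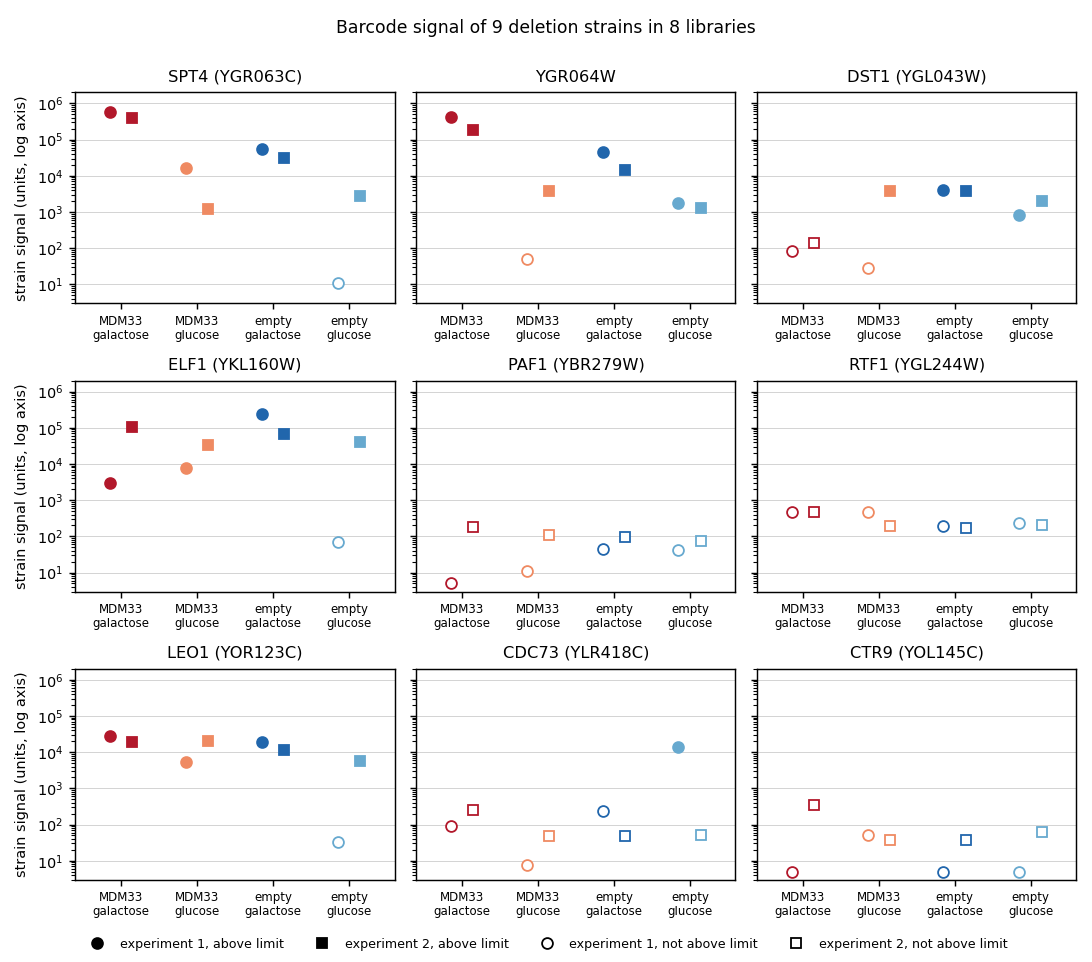
Signal of each of the 9 strains in 8 libraries, in units on a log axis, by plasmid and sugar, with circles for experiment 1, squares for experiment 2 and open symbols for values not above the detection limit (values under 5 units are drawn at 5). The SPT4 and YGR064W strains lie highest with the MDM33 plasmid on galactose and next highest with the empty vector on galactose, and PAF1, RTF1 and CTR9 have open symbols throughout.

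Both barcodes of the SPT4 strain carried this pattern. With the MDM33 plasmid on galactose the uptag gave 408454 and 380963 units and the downtag 782905 and 405761 units. With the empty vector on galactose the uptag gave 54258 and 33642 units and the downtag 58580 and 30122 units. For the YGR064W strain the pattern also held in both tags. With the MDM33 plasmid on galactose its uptag gave 44127 and 39536 units and its downtag 784074 and 318347 units, while with the empty vector on galactose the uptag gave 5593 and 5033 units and the downtag 83963 and 23533 units. The averaged value of this strain therefore rests mainly on the downtag, but both of its tags were above the limit in all 4 galactose libraries.

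The dyes of experiment 2 gave the same picture on galactose. There the SPT4 uptag with the MDM33 plasmid read 331947 units in Cy3 and 429980 units in Cy5, and the downtag 377405 units in Cy3 and 434117 units in Cy5. On glucose the dyes agreed less. The SPT4 uptag with the MDM33 plasmid gave 73.9 units in Cy3, below the limit, and 2280 units in Cy5.

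**Figure D2:**
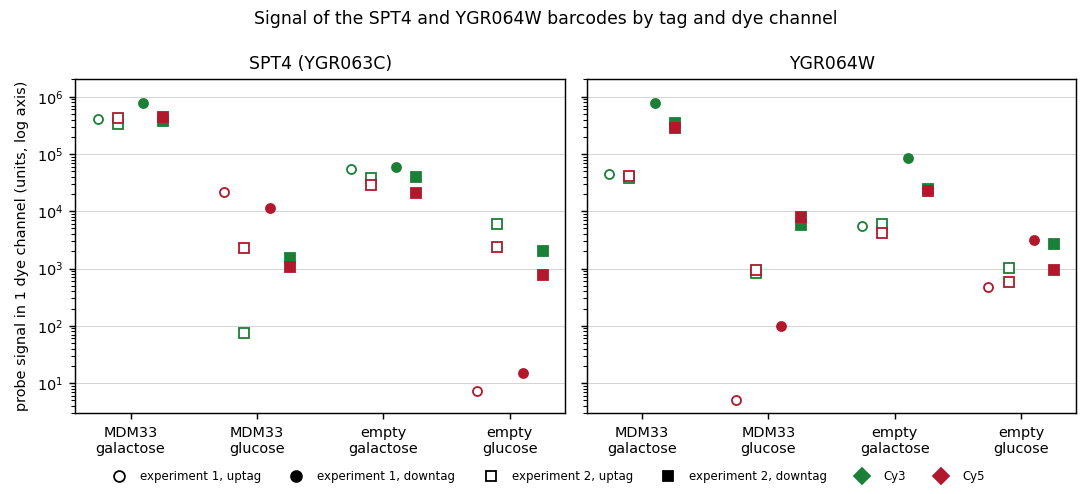
Signal of each tag of the SPT4 and YGR064W strains in each dye channel, in units on a log axis, by plasmid and sugar, with open symbols for the uptag and filled symbols for the downtag (values under 5 units are drawn at 5). Both dyes and both tags of the SPT4 strain give similar values on galactose, while the YGR064W downtag lies above its uptag.

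The values of the pair with the MDM33 plasmid were as follows. Between plasmids on galactose the SPT4 strain was 10.6 and 12.3 times as bright with the MDM33 plasmid as with the empty vector in experiments 1 and 2, and the YGR064W strain 9.25 and 12.5 times. The SPT4 strain with the MDM33 plasmid was 36.4 and 319 times as bright on galactose as on glucose. The YGR064W strain was 46.1 times as bright in experiment 2, and in experiment 1 its glucose value was below the limit. The fold of 319 rests on a glucose value near the limit, whose channels read 0.42 to 3.98 times their limits. These folds belong to the contrasts that chose the strains. As a share of all strain signal the SPT4 strain made up 0.486% and 0.323% with the MDM33 plasmid on galactose, and 0.0463% and 0.0264% with the empty vector on galactose.

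Galactose against glucose with the empty vector compares the pools when no MDM33 is supplied. It sets 4 days on galactose against 2 days on glucose, so it does not separate sugar from time. The SPT4 strain gave more signal on galactose in both experiments of this comparison too. The difference was 5.05 ± 1.31 on the log2 scale (SE, limma, values plus 500 units), rank 3 of 4148 strains from the highest, and its adjusted p was 0.9995. The YGR064W strain differed by 3.65 ± 1.16, the 16th highest, with the same adjusted p in limma. The test thus called neither strain. It called no strain at all (0% of 4148, and 79 at an unadjusted p under 0.05, or 1.90%), and 3 of the 6 members tested, SPT4, YGR064W and LEO1, were among those 79. The filter used the mean over all 8 libraries, including those of this comparison and those behind the choice, so this count is a description.

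In experiment 2, where both dyes were used and the strain was detected on both sugars, the SPT4 strain was 11.5 times as bright on galactose with the empty vector. Without empty vector glucose replicate 1, where it was below the limit, its difference was 3.71 in place of 5.05. The YGR064W strain was detected in all 4 empty vector libraries and was 24.5 and 10.9 times as bright on galactose in experiments 1 and 2. Between sugars the empty vector and the MDM33 plasmid share no library. A log2 difference above 3 was reached by 42 strains with the empty vector and by 51 strains with the MDM33 plasmid, and 3 strains were in both lists (7.14% of one and 5.88% of the other). These were SPT4, YGR064W and YIL060W, the last of them named only after its values were seen. The list with the MDM33 plasmid comes from a contrast behind the choice of SPT4 and YGR064W, so this overlap is a description.

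The MDM33 plasmid against the empty vector on glucose compares the pools while the promoter is shut off. No member was called in this comparison, and limma called 0% of all strains (43 at an unadjusted p under 0.05, no member among them). The SPT4 strain differed by 2.06 ± 1.31 and the YGR064W strain by -0.40 ± 1.16 (SE, both at an adjusted p of 1.00 in limma). In experiment 2, where both were detected with both plasmids, the SPT4 strain was at 0.443 of its empty vector value and the YGR064W strain at 2.95 times its own. The experiments disagreed in direction for both strains.

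**Figure D3:**
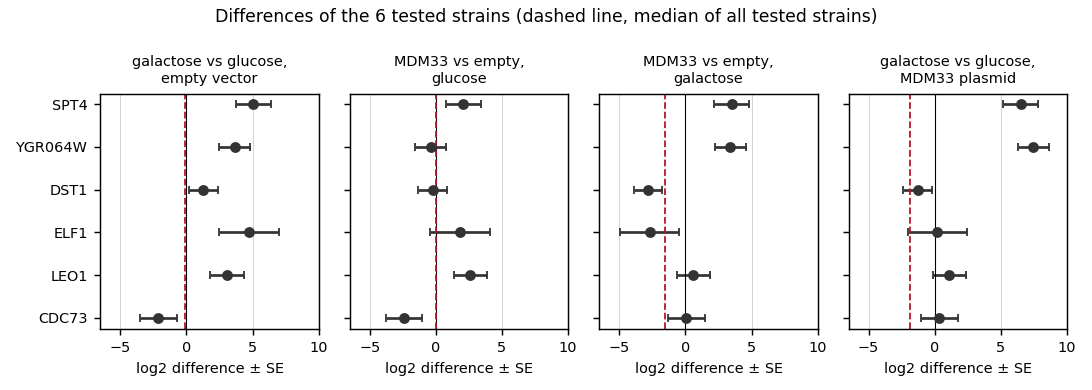
Log2 differences with their standard errors for the 6 tested strains in 4 comparisons, with a line at 0 and a dashed line at the median of all 4148 tested strains. SPT4 and YGR064W lie to the right in both comparisons of sugars and between plasmids on galactose, and to either side of 0 on glucose.

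Between plasmids on galactose most of the pool was lower with the MDM33 plasmid, with a median difference of -1.57 over all tested strains, and members are read against that shift. There limma called 12 strains higher (0.289%) and 450 lower (10.8%), and no member in either direction, a count from which nothing is read because this contrast lay behind the choice. That count of members changed under an offset of 2000, and nothing is read from the change either. Scaling to the 75th percentile of the labelled barcodes in place of the common total moved that median to 0.74 and the calls to 11 higher and 0 lower. The SPT4 strain differed by 3.50 ± 1.31 and ranked 36th from the highest, and the YGR064W strain differed by 3.40 ± 1.16 and ranked 38th. With the MDM33 plasmid the comparison of sugars had limma calls for 0% of strains (1547 at an unadjusted p under 0.05) and a median of -1.87, which was -0.34 with scaling to the 75th percentile of all spots on the array and 0.46 with that of the labelled barcodes. The YGR064W strain, at 7.46 ± 1.16, ranked highest of all, and the SPT4 strain, at 6.49 ± 1.31, had rank 3. Calls of these strains in this comparison varied over the 22 alternatives and are not read, because the contrast lay behind the choice. Under all 22 alternatives both strains kept a positive difference in these comparisons, from 2.59 to 10.3, a direction that their selection favoured.

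The genes next to SPT4 and YGR064W on the chromosome could not be followed. The strain of COX18 (YGR062C), whose product inserts a cytochrome oxidase subunit into the mitochondrial inner membrane, was not detected in any library by the average of its probes, which reached 222 units. A single uptag probe of it passed the limit in 2 libraries, with 779 units for the empty vector on galactose and 611 units for the empty vector on glucose, both in experiment 1. VHT1 (YGR065C), which encodes the plasma membrane biotin transporter, has no barcode probe here. Both were picked by position after the data had been seen.

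The 5 strains whose log2 values over the 8 libraries were most like those of SPT4 were RSM25 (Pearson correlation 0.919), FAT3 (0.896), MRP8 (0.874), MSA1 (0.869) and CPP1 (0.866). The first of them, RSM25, encodes a protein of the small mitochondrial ribosomal subunit. It gave 398639 and 127622 units with the MDM33 plasmid on galactose, 37894 and 25241 units with the MDM33 plasmid on glucose, 111604 and 33384 units for the empty vector on galactose, and 10774 and 39097 units with the empty vector on glucose. The RSM25 strain was detected in all 8 libraries, and the SPT4 strain in 7. Among the other members YGR064W stood 16th of 4147 strains by this measure, LEO1 46th and ELF1 248th, while DST1 and CDC73 had correlations of -0.41 and -0.52. The measure includes the libraries of the MDM33 plasmid on galactose that lay behind the choice of SPT4 and YGR064W. These ranks are therefore a description.

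The ELF1 strain (chromosome XI, 153269 to 153706) was detected in 7 libraries but varied between experiments. It gave 2988 and 107661 units with the MDM33 plasmid on galactose, 7979 and 33823 units with the MDM33 plasmid on glucose, 237732 and 67058 units for the empty vector on galactose, and 70.0 units, below the limit, and 40029 units with the empty vector on glucose. On galactose it was at 0.0126 of its empty vector value with the MDM33 plasmid in experiment 1 and at 1.61 times that value in experiment 2, so the experiments ran in opposite directions. The difference of -2.71 ± 2.25 had the widest error of the 6 tested members. On galactose against glucose with the empty vector it differed by 4.72 ± 2.25 (SE, adjusted p = 0.9995 in limma). Without empty vector glucose replicate 1 that difference was 1.65, and in experiment 2 the galactose value was 1.68 times the glucose value.

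The DST1 strain (chromosome VII, 417483 to 418412) was detected in 5 libraries and in neither library of the MDM33 plasmid on galactose. It gave 84.2 and 138 units there, 27.7 units, below the limit, and 3801 units with the MDM33 plasmid on glucose, 4025 and 3712 units for the empty vector on galactose, and 807 and 1951 units with the empty vector on glucose. All of the signal came from the uptag. The downtag, averaged over its original and its mutated probe, stayed at or below 168 units in every library. The detection limits of the uptag with the MDM33 plasmid on galactose were high, 3339 units in experiment 1 and 2037 units averaged over dyes in experiment 2. With the empty vector on galactose the uptag gave 8042 and 7419 units. By geometric means over both experiments it can thus only be called at least 2.96-fold lower with the MDM33 plasmid. The bound from experiment 1 alone is smaller. The median difference of all tested strains in this comparison was -1.57 on the log2 scale, about the size of the 2.96-fold bound. The bound thus does not set DST1 apart from a typical tested strain. Between sugars with the empty vector the strain was 4.99 and 1.90 times as bright on galactose in experiments 1 and 2, a difference of 1.29 ± 1.07 (SE, adjusted p = 0.9995 in limma) that the test did not call.

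Of the 5 subunits of the Paf1 complex only the LEO1 strain was detected in more than 1 library. The LEO1 strain (chromosome XV, 553176 to 554570) gave 27833 and 19272 units with the MDM33 plasmid on galactose, 5474 and 20159 units with the MDM33 plasmid on glucose, 19572 and 11384 units for the empty vector on galactose, and 33.1 units, below the limit, and 5834 units with the empty vector on glucose. On galactose it was 1.42 and 1.69 times as bright with the MDM33 plasmid as with the empty vector, a difference of 0.62 ± 1.26 against a median of -1.57 over all strains. By uptags alone that difference was -0.28. With the empty vector it differed by 3.07 ± 1.26 between galactose and glucose (SE, adjusted p = 0.9995 in limma), and by 1.29 without empty vector glucose replicate 1. On glucose it differed by 2.60 ± 1.26 between plasmids (SE, adjusted p = 1.00 in limma), and by 0.81 without that replicate.

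The CDC73 strain (chromosome XII, 956914 to 958095) was detected by the average of its probes in a single library, the empty vector on glucose in experiment 1, at 13561 units. In the other 7 libraries it gave between 7.86 and 245 units. In that library the original uptag probe read 29120 units and the downtag 12525 units, while a second uptag probe, which the array lists as mutated, read 75.1 units. The original uptag probe also passed the limit for the empty vector on galactose in experiment 1, with 772 units, while the mutated probe was at 0 there. With the limit at the 95th percentile the strain counted as detected in 2 libraries. It passed the filter through the glucose library, so its difference of -2.13 ± 1.39 between sugars with the empty vector (SE) is a description. Of all strains 139 (2.52%) were detected in exactly 1 library, 10 of them in this one.

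The strains of PAF1 (chromosome II, 761257 to 762594), RTF1 (chromosome VII, 41498 to 43174) and CTR9 (chromosome XV, 49555 to 52788) were not detected in any library, as were 1121 of 5526 strains (20.3%). Their highest values were 187 units for PAF1, 467 units for RTF1 and 349.6 units for CTR9, all with the MDM33 plasmid on galactose in experiment 2, where the limits were high. With the limit at the 95th percentile RTF1 counted as detected in 2 libraries, and PAF1 and CTR9 in none. They were not tested, and a value below the limit does not show that a strain was absent from the pool.

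The library of the empty vector on glucose in experiment 1 weighs on several of these values. Of the 5 members detected with the empty vector on glucose in experiment 2, 3 (SPT4, ELF1 and LEO1) were below the limit in experiment 1. Over all strains 526 of 4203 (12.5%) were detected in experiment 2 and not in experiment 1 in that group, and for strains above 5000 units in experiment 2, as ELF1 and LEO1 were, 225 of 3591 (6.27%). In experiment 1 each glucose value came from Cy5 alone. What made those values low was not tested.

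Over the 6 members that passed the filter, as a description, the median difference was 3.36 between sugars with the empty vector (5 of 6 above 0), 0.79 between plasmids on glucose (3 of 6), 0.34 between plasmids on galactose (4 of 6) and 0.71 between sugars with the MDM33 plasmid (5 of 6). The medians of all 4148 strains were -0.09, 0.01, -1.57 and -1.87 in that order of comparisons, with 45.0%, 50.8%, 21.2% and 16.1% of strains above 0. The 3.36 leans on empty vector glucose replicate 1. Without it the differences were 3.71 for SPT4, 3.83 for YGR064W, 1.65 for ELF1, 1.29 for LEO1, 0.83 for DST1 and 0.21 for CDC73. The median of all strains was then -0.16. SPT4 and YGR064W overlap on the chromosome but count as 2 of the 6 members. Both comparisons with the MDM33 plasmid on galactose lay behind their choice. CDC73 differed there by 0.06 between plasmids and 0.33 between sugars, and was not detected in any library of either comparison. A strain below the limit on both sides stays near 0. These counts above 0 are therefore not read against the shares of all strains.

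Of 35 other genes that act on transcribed chromatin or with elongating polymerase, all had a probe and 23 were tested, while 6 were detected in no library. These lists were drawn up with earlier results of the screen known, so their counts and medians are a description. No strain of them was called between sugars with the empty vector, where their median was -0.23 with 10 of 23 above 0, nor on glucose between plasmids, nor between sugars with the MDM33 plasmid. Between plasmids on galactose 0 were called higher and 2 lower, against 0.289% and 10.8% of all strains, and their median was -0.63.

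The 2 strains called lower with the MDM33 plasmid were SET2, the histone H3 methyltransferase carried by elongating polymerase, and HIR2, a subunit of the HIR histone chaperone. The SET2 strain gave 4997 and 161 units with the MDM33 plasmid and 68464 and 67660 units with the empty vector, both on galactose, a difference of -5.17 (adjusted p = 0.0417, limma). The 161 units lay below the detection limit, so the size of that difference depends on the offset, and in experiment 1 the strain was at 0.0730 of its empty vector value. The HIR2 strain gave 2774 and 1477 units with the MDM33 plasmid and 42696 and 23596 units with the empty vector, both on galactose, a difference of -3.66 (adjusted p = 0.0404, limma). SET2 was called under 11 of the 22 alternatives and HIR2 under 10. Neither was called with either 75th percentile scaling, with uptags alone or with array weights. EAF3, a subunit of the Rpd3S deacetylase that acts after Set2, differed by -4.69 and missed the threshold (adjusted p = 0.0527, limma). The EAF3 strain gave 3179 and 126 units with the MDM33 plasmid on galactose, the second of them below the limit. By list, the median difference between plasmids on galactose was -4.69 over the 3 tested strains of the Set2 pathway (no strain of a carboxy-terminal domain kinase was tested), -0.31 over 7 strains of histone H2B ubiquitylation and H3 methylation, 0.69 over 4 strains of THO and TREX-2, and -0.68 over 9 strains of chromatin factors. Between sugars with the empty vector the medians of these lists were 2.05, -0.24, -1.83 and -0.14. No strain of the Set2 list was detected in both libraries of the MDM33 plasmid on galactose. The size of its median of -4.69 therefore depends on the offset.

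With the MDM33 plasmid on galactose most of the other listed strains with a high mean differed widely between experiments. SHG1 and SPP1, subunits of the Set1 methyltransferase complex, gave 13374 and 266354 units and 84376 and 321 units. SPT2, a histone chaperone of transcribed genes, gave 115852 and 14838 units, and HIR1, another HIR subunit, gave 2191 and 97835 units. THP2 and MFT1, subunits of the THO complex that couples transcription to mRNA export, gave 310.1 and 79112 units and 4379 and 3531 units. The strains of the polymerase subunits RPB4 and RPB9 were detected in no library.

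**Figure D4:**
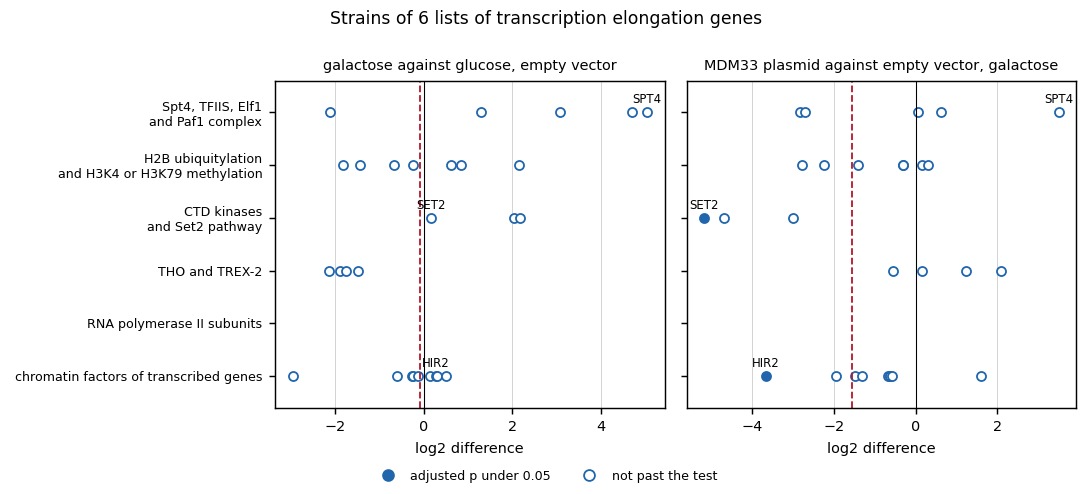
Log2 differences of the tested strains of 6 gene lists between sugars with the empty vector (left) and between plasmids on galactose (right), with filled symbols for an adjusted p under 0.05, a line at 0 and a dashed line at the median of all tested strains. SPT4 lies highest in both panels, and SET2 and HIR2 are filled on the right.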

How the data were processed

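The 24 dye channels were assigned by their labels to plasmid, sugar, tag, dye and experiment. The deposited values were linear spot intensities, which the authors background-corrected with ArrayVision and scaled to a common total (147379493 to 147666701 units in the columns used). A further 24 value columns were not used, since their numbers do not match the sample titles. Probes of a tag, then dyes, then tags were averaged to 8 values per strain, and log2(value + 500) was fitted with limma 3.58.1 in R 4.3.3 (4 groups, 2 experiments each, spread pooled over groups, Benjamini-Hochberg over 4148 strains at 0.05). With 2 experiments per group, precision is low. The pooled spread includes the MDM33 plasmid on galactose, whose experiments differed most, so that group also enters the errors of the other comparisons. Tables came from pandas 2.3.3 and numpy 2.4.6 under Python 3.11.15, and figures from matplotlib 3.10.9. The procedure was also run on simulated strains, each with the same spread in all 4 groups and changes added only for the empty vector on galactose. That run lacked the shift and the wider spread of the MDM33 plasmid on galactose, so nothing is read from it. Coordinates are RefSeq's (assembly R64), and 440 strains without a match kept their systematic name.

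Members and lists were chosen with earlier results of these data known. Named are all 9 members, the 5 strains most like SPT4, listed strains past the test and otherwise the 2 per list whose mean with the MDM33 plasmid on galactose was highest. COX18, VHT1 and YIL060W are named outside this rule.

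The protocol plates each transformation on both sugars, so equal experiment numbers pair sugars within a plasmid. The main fit did not model this pairing. The replicate block among the alternatives was a single term shared by all groups, so it did not model pairing within a plasmid either. Deviations of same-numbered libraries correlated at 0.15 between sugars with the MDM33 plasmid and 0.25 with the empty vector (0.06 to 0.32 over all pairs of groups). The alternatives were the offset, scaling, filter, tags, probes, dyes, array weights, a replicate block, the detection limit and each replicate left out.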

Additional observations from a re-analysis of the deposited data

How the results depend on the processing

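Between sugars with the empty vector and between plasmids on glucose no strain was called under any of the 22 alternatives. Between plasmids on galactose 462 strains were called, and the count was 121 with an offset of 100, 6 when all probes set a 75th percentile scaling, 11 with that of labelled barcodes, 743 without a filter, 0 with uptags alone, 231 with Cy5 alone in experiment 2 and 0 with array weights. With a replicate block it was 325 (10 higher, 315 lower), and the block changed no other count. Between sugars with the MDM33 plasmid 0 were called, and the count was 557 with an offset of 2000, 16 and 52 with these scalings, 658 without a filter and 408 with downtags alone. Leaving out 1 replicate gave 0 to 1794 calls between plasmids on galactose and 0 to 1775 between sugars with the MDM33 plasmid, with the highest counts without MDM33 galactose replicate 1. The median of all strains between plasmids on galactose was -0.83 with the first of these scalings and 0.74 with the second (-1.57 as reported), and that between sugars with the empty vector was 0.65 and -0.05 (-0.09 as reported).

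Of 655 recomputed differences of members 21 changed sign, 14 of them in comparisons with the MDM33 plasmid on galactose or the interaction of plasmid and sugar. The other 7 follow. On glucose between plasmids the DST1 difference (-0.25) was 0.042 with an offset of 2000 and 0.13 with Cy3 alone in experiment 2. Leaving out 1 replicate gave -1.76 to 1.27 for DST1, -1.90 to 1.09 for YGR064W and -1.25 to 4.90 for ELF1 in that comparison, and -4.47 to 0.21 for CDC73 between sugars with the empty vector. DST1 could not be fitted with downtags alone. The SPT4 difference between sugars with the empty vector ranged from 3.71 to 6.62. The limits were highest with the MDM33 plasmid on galactose, where weak strains could not be measured.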
